A study of Mus musculus with 2 samples.

Results

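The potassium channel genes described here are all genes on a whole mouse genome array whose name starts with Kcn, which gave 84 of 27962 gene names and 123 of 41174 probes. Of these genes, 51 had 1 probe, 27 had 2 probes and 6 had 3 probes, and the probes of a gene are kept separate throughout. One of the names, Kcnq1ot1, belongs to a noncoding RNA transcribed antisense to Kcnq1 and not to a channel, so 83 genes encode channel subunits or their partners. The arrays compared brain RNA of female C57BL/6J dams that were 8 weeks old, taken on postpartum day 0. Array 1 carried TDAG51-/- (KO) RNA labelled with Cy3 and TDAG51+/+ (WT) RNA labelled with Cy5. Array 2 carried TDAG51-/- RNA in Cy3 again and, in Cy5, RNA of TDAG51-/-Tg2 dams, which lack the endogenous gene and carry a TDAG51 transgene under the brain-specific BAI1-AP4 promoter (labelled KO Tg). The endogenous TDAG51 gene, listed as Phlda1 on the array, is thus deleted in KO and in KO Tg alike. The number of dams behind each RNA sample was not given. Each comparison rested on 1 array with no dye swap, so no test across dams was possible, no p-value is given, and a difference between genotypes cannot be told apart from a difference between individual samples or between dyes.

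Potassium channels let potassium ions leave the cell and thereby set the resting potential, end the action potential and limit repetitive firing. Voltage-gated channels are built from alpha subunits of the Kcna to Kcnd, Kcnh and Kcnq families, with auxiliary subunits such as Kcnab, Kcnip and Kcne proteins, and with silent subunits (Kcnf, Kcng, Kcns, Kcnv) that only work together with other alpha subunits. Inward rectifiers (Kcnj) include the channels opened by G proteins below inhibitory receptors, the Kcnk channels carry background leak, and the Kcnm, Kcnn and Kcnt channels respond to calcium or sodium inside the cell.

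All values below are either mean spot intensities in scanner units, not normalized, or log2 ratios of KO over the control on the same array after background correction and loess normalization, which removes the overall difference between dyes. A log2 ratio of 1 is a 2-fold difference, the threshold used throughout. Across 245 probes printed on at least 5 spots of each array, the median SD between spots was 0.063 on array 1 and 0.065 on array 2, on the log2 scale. KO RNA was in Cy3 on both arrays, and whether it was the same extract was not stated, so the difference between its readings may hold a difference between dams as well as technical scatter. Over 108 Kcn probes well above background in KO on at least 1 array, the median absolute difference between the arrays was 0.10 and none reached 2-fold. The probe for the deleted gene, Phlda1, had an intensity of 350 in KO and 7283 in WT on array 1. On array 2 its intensity was 44.1 in KO and 50.5 in KO Tg, neither well above background, so the transgene was not seen by this probe. The KO readings themselves differed between the arrays, 350 against 44.1.

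Markers of brain regions differed between KO and both controls, and this is given before the channels because many channels are region-restricted. Of 10 markers of cerebellar granule cells, 7 were at least 2-fold higher in KO in both comparisons, with a median log2 ratio of 2.11 over WT and 1.98 over KO Tg. Purkinje cell markers (7 of 10, medians 2.13 and 2.03) and hindbrain and brainstem markers (7 of 12 genes, 2 of them near background, medians 2.43 and 2.22) were higher as well. Striatal markers (7 of 11 at least 2-fold lower, medians -1.33 and -1.44) and markers of cortex and hippocampus (6 of 10, medians -1.03 and -1.20) were lower. The summed normalized signal of the granule cell list was 323815 in KO and 109435 in WT on array 1 and 321288 in KO and 100250 in KO Tg on array 2, with saturated spots taken at their reading, and that of the striatal list, with none saturated, was 61531 against 146521 and 58048 against 150384. The lists for thalamus, myelin and astrocytes had no gene at least 2-fold apart in the same direction in both comparisons, nor did those for endothelium and general neurons, while 1 of 6 choroid plexus genes was higher in both. Some marker spots were saturated, at the scanner's ceiling, in at least 1 channel (2 of 10 genes for granule cells, 2 of 7 for myelin, 2 of 7 for astrocytes, 1 of 7 for thalamus), and 1 gene each of the myelin and astrocyte lists was saturated in both channels of an array, where a 2-fold difference could not show. In bulk tissue, fewer cells of a type and less RNA per cell cannot be told apart, and the part of these regional differences in the channel values below was not tested.

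Of the 123 Kcn probes, 105, representing 75 genes, rose clearly above background on both arrays in KO or in the control, and 18 probes did not. Against WT, 10 of 110 Kcn probes (9.09%) were at least 2-fold higher in KO, where 4.9% of all probes were, and 9 (8.18%) were at least 2-fold lower, where 4.42% of all probes were. Against KO Tg, 7 of 106 Kcn probes (6.60%) were higher, beside 4.73% of all probes, and 11 (10.4%) were lower, beside 3.85%. Both comparisons share the KO genotype in Cy3, so a probe that is unusual in KO alone appears in both. In both comparisons at once, 6 of 105 Kcn probes (5.71%) were higher, where 2.7% of all probes were, and 8 (7.62%) were lower, where 1.37% were. The probes higher in both included those of Kcna6 (on the strand opposite to its gene), Kcnc1, Kcne2, Kcng4 and Kcnj16. Those lower in both were of Kcnf1, Kcnip2, Kcnip3, Kcnj4 (both of its probes), Kcnj6, Kcnma1 and Kcns2. No Kcn probe was 2-fold apart in opposite directions. The median log2 ratio of Kcn probes was -0.09 over WT and -0.13 over KO Tg, beside 0.02 and 0.02 for all probes with the same filter. The median of the channel genes thus lay close to 0, and the 14 probes past 2-fold in both comparisons belonged to 13 genes. Of the 105 Kcn probes, 35 were positive and 48 negative in both comparisons, beside 12710 and 11525 of 33254 for all probes.

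**Figure D1:**
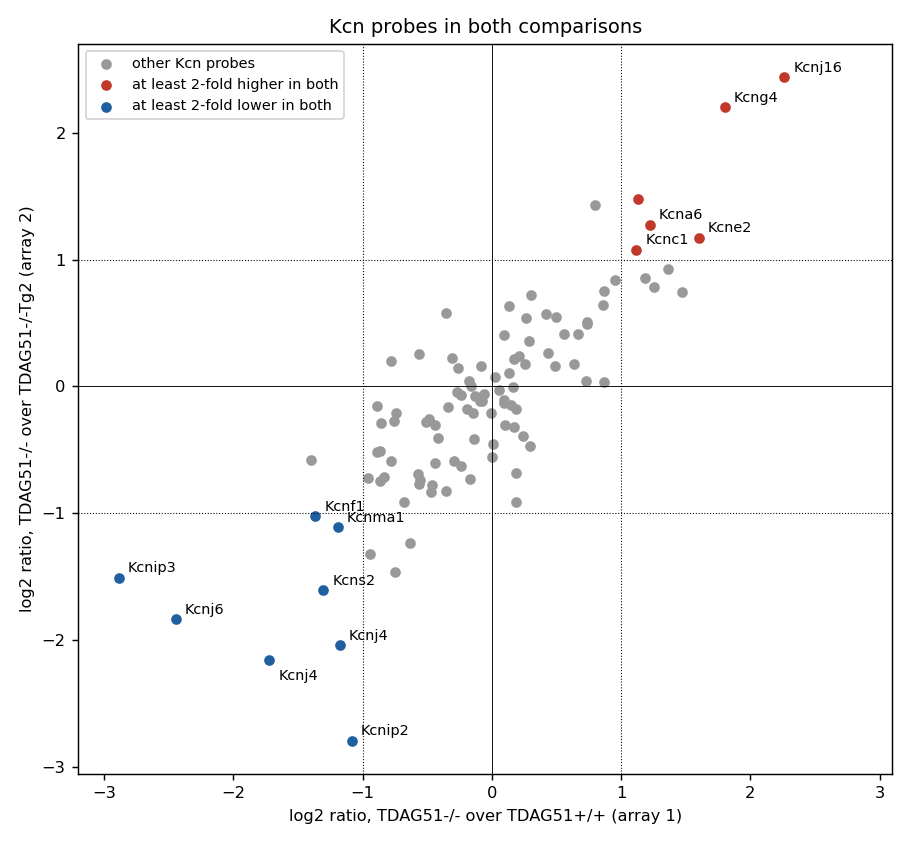
Each point is 1 of the 105 Kcn probes well above background on both arrays, with its log2 ratio of TDAG51-/- over TDAG51+/+ on the horizontal axis and of TDAG51-/- over TDAG51-/-Tg2 on the vertical axis; dotted lines mark a 2-fold difference. The 6 red probes are at least 2-fold higher and the 8 blue probes at least 2-fold lower in TDAG51-/- in both comparisons, which share the TDAG51-/- genotype.

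The counts depended on how the ratios were made. Against WT, 10 Kcn probes were higher and 9 lower with the settings used here, so that 52.6% of those past 2-fold were higher. Without the normexp offset 13 were higher and 20 lower (39.4%), with the scanner's own ratio 14 and 20 (41.2%), with the deposited ratio 14 and 21 (40.0%) and without normalization 5 and 16 (23.8%). Against KO Tg that share was 38.9%, and 20.8% without normalization. Of all probes, 4.9% were higher and 4.42% lower than WT here, and 3.35% and 8.26% without normalization. The shares were 9.09% and 7.67% without the offset, 11.6% and 9.46% with the scanner's ratio and 11.3% and 9.71% with the deposited ratio. Against KO Tg they were 4.73% and 3.85% here, and 2.77% and 8.71% without normalization. The share of Kcn probes higher than KO Tg lay above that of all probes here but below it without the offset (7.55% beside 8.75%), with the scanner's ratio (8.49% beside 11.2%) and with the deposited ratio (8.49% beside 10.5%). Higher than WT, the shares were 12.7% beside 11.6% with the scanner's ratio and 12.7% beside 11.3% with the deposited ratio. Without normalization they were 4.55% beside 3.35%. Lower than WT, the same settings gave 18.2% beside 9.46%, 19.1% beside 9.71% and 14.5% beside 8.26%. With only the brightest probe of each gene, the probes of 3 genes (Kcna6, Kcne2 and Kcng4) were higher in both comparisons. The Kcna6 probe lies on the strand opposite to its gene. The share of all genes under this rule is not given here, so this count does not show whether channel genes stood out.

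Several genes had probes that gave different answers, and the sequences of the probes where this was largest are shown so that each value can be tied to the stretch of RNA it reads. Of 25 genes with at least 2 probes above background on both arrays, 3 had probes more than 1 apart on the log2 scale in both comparisons: Kcnj6, Kcnj16 and Kcnc1. Kcnip3 is shown with them because its probes were 2.32 apart against WT. The first 30 of the 60 bases of each probe follow, 5′ to 3′ and all in lower case, since no part was singled out.
Kcnj6 A_51_P142371: gcagtttaagaaacctttctgtgaaagcat
Kcnj6 A_52_P191086: gtgtcaccattgattattagccatgaaatt
Kcnj16 A_51_P357773: ccttttgcagtgccaaacaactggactgga
Kcnj16 A_52_P550325: tagatgctcttgattcctgatcctgagagg
Kcnj16 A_52_P550331: ctcagaaacactgagatgagaaagtaaaac
Kcnc1 A_52_P422050: tccttctctggacaagaagagcaggctatg
Kcnc1 A_52_P592305: tgtctggagactcacgagcgcttcaacccc
Kcnc1 A_52_P867058: gagattcgagcatgaaataaattttgtaac
Kcnip3 A_52_P185255: ccattgatgaatttctggagacttgtcaga
Kcnip3 A_52_P203269: attccctggggagatcacctggctcataga

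Kcnj6 encodes GIRK2, a subunit of the G protein-activated inward rectifiers that mediate slow inhibition in many neurons. Its probe A_51_P142371 lies at chr16:95067154-95067213 on the minus strand of mm7, the build of the array's probe coordinates, and A_52_P191086 lies 71290 bases away at chr16:95138444-95138503 on the same strand. Both are assigned to the same transcript, and because the gene runs on the minus strand the first probe is the one nearer its 3′ end. The intensity of A_51_P142371 was 64.5 in KO and 423 in WT on array 1 and 115 in KO and 520 in KO Tg on array 2. The KO values were thus below both controls, but they differed from each other by 0.79 on the log2 scale, the furthest apart of all Kcn probes in KO. The log2 ratio of this probe was -2.45 over WT and -1.83 over KO Tg, a 5.45-fold and a 3.56-fold lower level in KO. The size of this difference depended on the background correction: it was -3.75 and -2.35 without the normexp offset and -4.52 and -2.59 in the deposited ratios, or 22.9-fold and 6.02-fold. A_52_P191086, printed on 10 spots of each array, read 220 in KO and 215 in WT, and 208 in KO and 258 in KO Tg. Its log2 ratio was 0.10 ± 0.11 (SD, n = 10 spots) over WT and -0.10 ± 0.09 (SD, n = 10 spots) over KO Tg, so it lay near 0 in both. The spots of a probe are technical repeats of 1 hybridization. No direction can therefore be given for Kcnj6 as a gene.

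Kcnj16 encodes Kir5.1, a subunit that pairs with the glial Kir4.1 encoded by Kcnj10. Its probe A_51_P357773 read 540 in KO and 103 in WT on array 1, and 516 in KO and 96.9 in KO Tg on array 2, which gave log2 ratios of 2.26 and 2.44. Without the normexp offset these were 2.90 and 3.19, and in the deposited ratios 3.20 and 3.78. A_52_P550325, which lies 1067 bases further on chromosome 11, had ratios of 0.17 and 0.21, and the dimmer A_52_P550331 had 0.17 and -0.32. Only 1 of the 3 probes of Kcnj16 therefore differed between the genotypes.

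Kcnc1 encodes Kv3.1, a channel of fast-spiking neurons. Its probe A_52_P592305 read 3912 in KO and 2154 in WT, and 3763 in KO and 2149 in KO Tg, with log2 ratios of 1.12 and 1.08. A_52_P867058 lay beside it, at 1.36 and 0.93, whereas A_52_P422050, placed between the other two on chromosome 7, lay at -0.14 and -0.21. Thus 2 of the 3 probes were higher in KO and 1 was near 0.

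Kcnip3 encodes a calcium-binding protein, also known as calsenilin or DREAM, that binds Kv4 channels. Its probe A_52_P185255, whose 60 bases are spread over 1001 bases of chromosome 2, read 334 in KO and 2856 in WT, and 292 in KO and 985 in KO Tg. The log2 ratios were -2.89 and -1.51. The other probe, A_52_P203269, gave -0.57 and -0.69. Both probes were lower in KO in both comparisons, but by different amounts. For 3 further genes, Kcnf1, Kcnj3 and Kcnq1, the coordinates place the probes of 1 gene on opposite strands, so that they read opposite strands. This comparison covers only genes with several probes. The Kcna6 probe, described below, lies on the strand opposite to its gene.

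**Figure D2:**
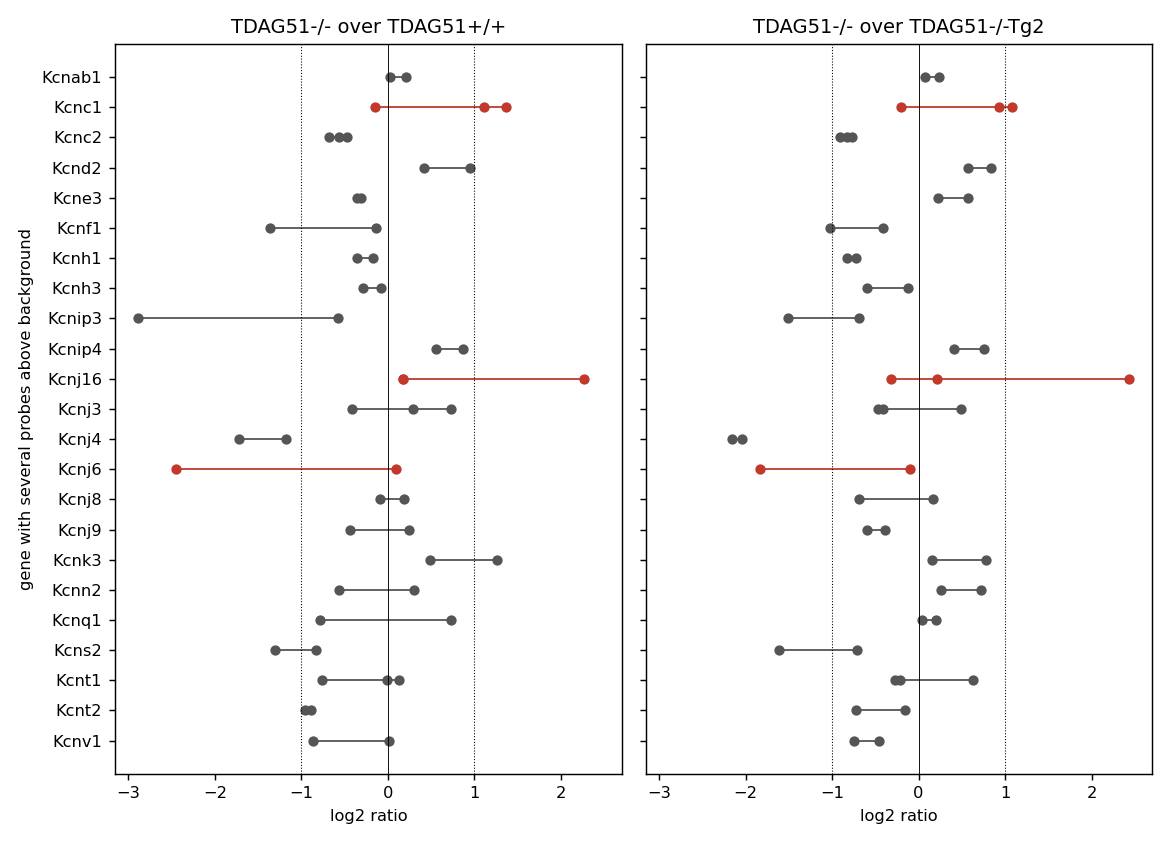
Log2 ratios of 23 of the Kcn genes with at least 2 probes above background on both arrays, with 1 point per probe and a line from the lowest to the highest probe of a gene; dotted lines mark a 2-fold difference. Kcnc1, Kcnj16 and Kcnj6 (red) have probes more than 1 apart in both comparisons.

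Among the voltage-gated alpha subunits, the Kcna family (Kv1, which sets the threshold for firing along axons) had 7 genes with 1 probe each, all above background. The Kcna6 probe was the one higher in KO in both comparisons, with log2 ratios of 1.22 and 1.28. It read 797 in KO and 368 in WT, and 881 in KO and 412 in KO Tg. This probe lies on the plus strand and the gene on the minus strand, so no direction can be given for the Kcna6 channel transcript. Kcna4, which carries the fast-inactivating current of Kv1.4, read 7501 in KO and 16263 in WT, and 6076 in KO and 20256 in KO Tg, with log2 ratios of -0.63 and -1.23, so that it passed 2-fold against KO Tg alone. Kcna1, the brightest probe of the family, was at 0.26 and 0.18.

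In the Kcnb family (Kv2, the main delayed rectifiers of cell bodies), all 3 probes had negative ratios in both comparisons, and 1 of them passed 2-fold against KO Tg alone. Of 9 Kcnc probes, 4 had positive and 5 negative ratios in both comparisons. All 3 probes of Kcnc2 (Kv3.2) lay between -0.47 and -0.91 in both comparisons. In the Kcnd family (Kv4, the dendritic A-type current), none of 4 probes passed 2-fold, and the brightest, a Kcnd2 probe, was at 0.95 and 0.84.

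The auxiliary subunits of Kv channels held some of the largest values. Kcnip2 (KChIP2, which brings Kv4 channels to the membrane) read 443 in KO and 1075 in WT on array 1, and 471 in KO and 3964 in KO Tg on array 2, with log2 ratios of -1.08 and -2.79. The KO readings were alike on both arrays and the controls stood apart from each other, a difference taken up below. Of the 4 Kcnip genes, Kcnip2 and Kcnip3 were lower in both comparisons, Kcnip1 was at -0.13 and -0.08, and the brightest Kcnip4 probe was at 0.56 and 0.41. None of 4 Kcnab probes (Kv beta subunits) passed 2-fold, with ratios between 0.00 and 0.21 over WT and between -0.56 and 0.24 over KO Tg, and the brightest, a Kcnab1 probe, was at 0.02 and 0.07.

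The Kcne proteins are single-pass subunits that modify other channels. Kcne2, which in the brain is known from the choroid plexus, read 6445 in KO and 2605 in WT, and 6523 in KO and 3670 in KO Tg, with log2 ratios of 1.60 and 1.17. The choroid plexus marker list had a median of 0.70 and 0.54 in the same comparisons, 4 of 6 genes being positive over WT and 5 of 6 over KO Tg, and its summed signal was 12112 in KO and 7950 in WT on array 1 and 10656 in KO and 7574 in KO Tg on array 2. The genes of this list were not alike: over WT, 2 were at least 2-fold higher in KO and 1, Aqp1, was at least 2-fold lower (-1.41). Over KO Tg, 1 was at least 2-fold higher and 0 lower. The part of choroid plexus tissue in the Kcne2 value was not tested. Kcne1l was at 0.80 and 1.43, past 2-fold against KO Tg alone.

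The silent subunits differed from one another in direction. Kcng4 (Kv6.4) had the second largest ratio upward after Kcnj16, with 1094 in KO and 335 in WT, and 1056 in KO and 253 in KO Tg, and log2 ratios of 1.80 and 2.20. Kcns2 (Kv9.2) was lower, at 637 in KO and 1816 in WT and 632 in KO and 2309 in KO Tg, with -1.31 and -1.61 for this probe and -0.83 and -0.71 for its other probe. Kcnf1 (Kv5.1) was also lower, at 654 in KO and 1926 in WT and 719 in KO and 1729 in KO Tg, with -1.37 and -1.02. In each of these 3 probes the KO readings of the arrays lay close together and apart from both controls. The second Kcnf1 probe, on the opposite strand, was at -0.14 and -0.42. Kcns3, the brightest probe of the group, was at 0.26 and 0.54.

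Among 8 Kcnh probes above background (the Eag, Erg and Elk channels), 5 were negative in both comparisons. Kcnh7 (Erg3) read 316 in KO and 677 in WT, and 304 in KO and 922 in KO Tg, with -0.94 and -1.32, and passed 2-fold against KO Tg alone. The brightest, Kcnh1, was at -0.17 and -0.73. None of 5 Kcnq probes (the M-current family) passed 2-fold. The noncoding Kcnq1ot1 was at 0.86 and 0.64.

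**Figure D3:**
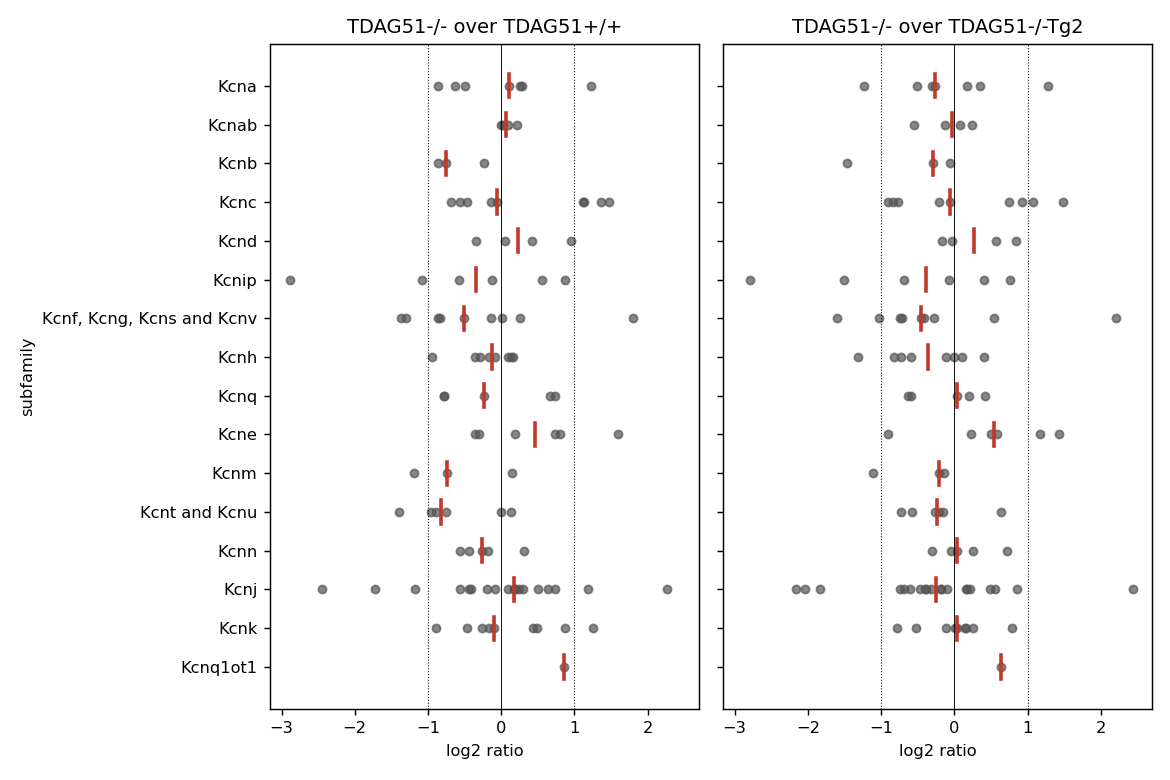
Log2 ratios of the Kcn probes above background on both arrays by subfamily, 1 point per probe, with the median of each subfamily as a red bar and dotted lines at a 2-fold difference. Most medians lie within 0.5 of 0, and the probes past 2-fold are spread over several subfamilies and both directions.

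Of the calcium- and sodium-activated channels, Kcnma1, the pore subunit of the BK channel, was lower in KO in both comparisons, with intensities of 1311 in KO and 3537 in WT, and 1326 in KO and 3445 in KO Tg, and log2 ratios of -1.19 and -1.11. The WT and KO Tg readings were nearly equal, as were both KO readings. Of its beta subunits, Kcnmb2 was at 0.15 and -0.15 and Kcnmb4 at -0.75 and -0.21, while Kcnmb1 was not well above background. Kcnu1 (Slo3, known from sperm) read 157 in KO and 483 in WT, and 145 in KO and 256 in KO Tg, with -1.40 and -0.58. None of 5 Kcnn probes (SK channels) passed 2-fold. For Kcnn2, a probe printed on 10 spots gave, with outlier spots left out, 0.31 ± 0.05 (SD, n = 9 spots) over WT and 0.72 ± 0.04 (SD, n = 8 spots) over KO Tg, and the other probe -0.56 and 0.25. The Kcnt probes ranged from -0.96 to 0.13 over WT and from -0.72 to 0.63 over KO Tg, the brightest (Kcnt1 A_52_P78699) being at 0.13 and 0.63.

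The Kcnj family had the widest range. Beside Kcnj6 and Kcnj16, described above, Kcnj4 (Kir2.3, a strong inward rectifier of forebrain neurons) was lower with both of its probes. A_51_P166740 read 10165 in KO and 50618 in WT, and 9031 in KO and 61654 in KO Tg. Its log2 ratios were -1.72 and -2.16, a 3.30-fold and a 4.46-fold lower level in KO, and -2.31 and -2.77 without normalization. A_52_P4285 read 298 in KO and 756 in WT, and 306 in KO and 1517 in KO Tg, with -1.18 and -2.04. Kcnj4 was the one gene in which 2 probes both passed 2-fold in both comparisons, and the striatal and cortical marker lists were lower in the same direction. Kcnj12 (Kir2.2) read 6250 in KO and 3424 in WT, and 5539 in KO and 3866 in KO Tg, at 1.18 and 0.85. Kcnj10, the glial Kir4.1, was at 0.63 and 0.18. Of the subunits that form G protein-activated channels with Kcnj6, the 2 Kcnj9 probes lay at -0.44 and -0.60 and at 0.24 and -0.39, Kcnj3 probes lay between -0.47 and 0.73, and Kcnj5 was not well above background. The Kcnj11 subunit of ATP-sensitive channels was at 0.19 and -0.18.

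Of 9 Kcnk probes, 1 passed 2-fold in 1 comparison. It was a Kcnk3 probe (TASK-1, an acid-sensitive leak channel) that read 14312 in KO and 8359 in WT, and 14127 in KO and 11831 in KO Tg, with 1.26 and 0.78, while the other Kcnk3 probe was at 0.49 and 0.16. Kcnk1 (TWIK-1), the brightest, was at 0.43 and 0.26. Genes named here because they passed 2-fold in a single comparison (Kcna4, Kcne1l, Kcnh7, Kcnj12, Kcnk3 and Kcnu1) were picked after their values were seen. Probes of 6 genes, Kcng3, Kcnj1, Kcnj5, Kcnk16, Kcnmb1 and Kcnv2, were not well above background in any channel.

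**Figure D4:**
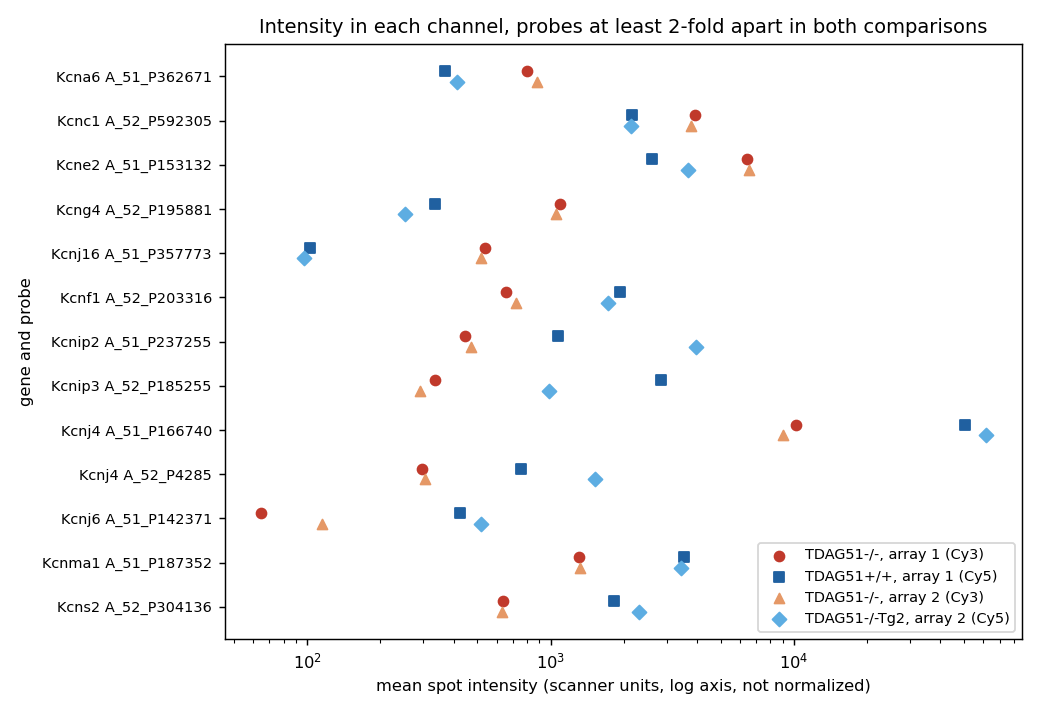
Mean spot intensity (log axis, scanner units, not normalized) of 13 Kcn probes at least 2-fold apart in the same direction in both comparisons, with the TDAG51-/- readings of both arrays (red and orange) and the controls (blue). The TDAG51-/- readings of a probe lie close together except for Kcnj6, and the controls stand apart for Kcnip2, Kcnip3 and the Kcnj4 probe A_52_P4285.

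Proteins that work with potassium channels were counted in the same way. The 25 partner genes listed were HCN channels, DPP and AMIGO subunits, partners that cluster Kv1 channels, the sulfonylurea receptors, LRRC subunits and others. Of these, 24 were on the array and 23 were above background on both arrays. At least 2-fold higher in both comparisons was 1 gene (4.35%), beside 2.7% of all probes, and none was at least 2-fold lower, beside 1.37%. That gene, Lrrc38, a gamma subunit that shifts BK channel gating, read 798 in KO and 180 in WT, and 678 in KO and 259 in KO Tg, with log2 ratios of 2.15 and 1.55. The median of the list was 0.04 over WT and -0.19 over KO Tg, close to 0. Of the 24 genes, 2 were saturated in at least 1 channel. Among them, 1 was saturated in both channels of an array, where a 2-fold difference could not show.

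The transgenic and the wild-type control were compared through the Cy5 channels of the 2 arrays, after scaling the channels to each other. Of 109 Kcn probes well above background in Cy5 on at least 1 array, 1 (0.917%) was at least 2-fold higher in KO Tg than in WT, beside 3.77% of all probes, and 2 (1.83%) were at least 2-fold lower, beside 4.1%. The median absolute difference was 0.28 for Kcn probes and 0.29 for all probes, against 0.10 and 0.10 between the KO samples in Cy3. Kcnip2 was 1.81 higher in KO Tg on the log2 scale, while the KO readings of this probe differed by 0.10. The Kcnip3 probe A_52_P185255 was 1.58 lower in KO Tg, given by a difference of -1.58, with the KO readings -0.20 apart, whereas the other Kcnip3 probe differed by 0.25. The third was Kcnt1 A_51_P489003, at -1.07, where the KO readings also differed by -0.59. With Kcnip2 and Kcnip3 as exceptions, probes 2-fold apart from KO in both comparisons differed by less than 2-fold between the controls.

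**Figure D5:**
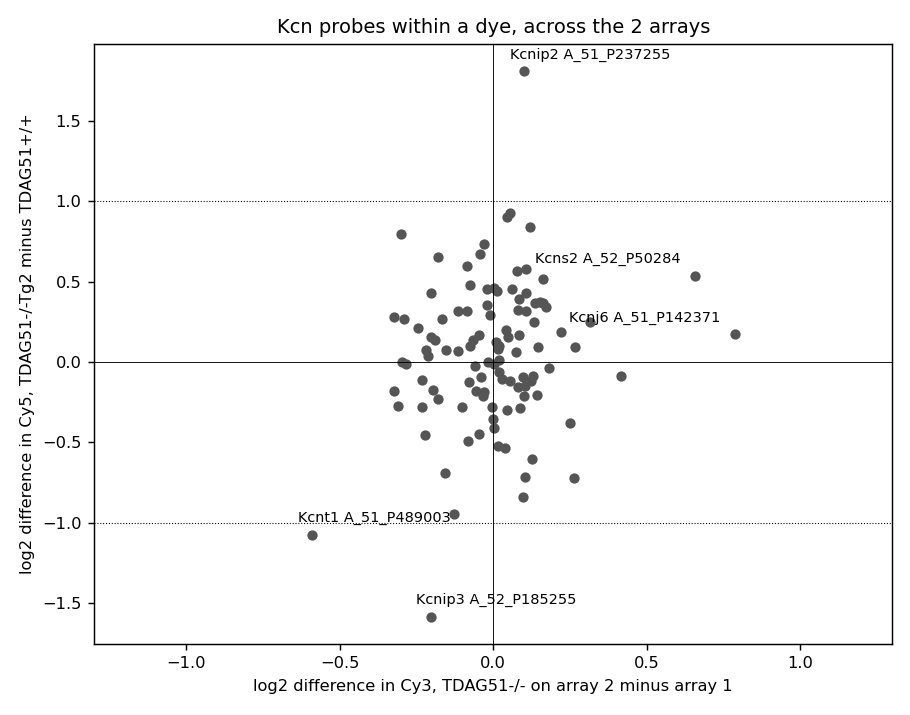
Log2 difference of Kcn probes within a dye between the 2 arrays: TDAG51-/- against TDAG51-/- in Cy3 (horizontal, which holds technical scatter and, if the extracts differed, a difference between dams) and TDAG51-/-Tg2 against TDAG51+/+ in Cy5 (vertical), with dotted lines at a 2-fold difference. Kcnip2 and Kcnip3 lie beyond 2-fold in Cy5 with little difference in Cy3.

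Promoter sequences are shown for 4 of the genes with a probe past 2-fold in both comparisons, to set the start regions of both directions side by side. The probes of Kcnj4 and Kcnip2 were lower in KO, and those of Kcng4 and Kcna6 were higher. The Kcna6 probe lies on the strand opposite to the promoter printed here, so its value is not tied to this start. RefSeq promoters on GRCm38.p6, a build other than that of the probes, were found for 11 of the 13 genes past 2-fold in both comparisons, with 18 start sites. The 250 bases before a start are printed 5′ to 3′ on the gene's strand, with matches in capitals to any of 4 motifs searched on both strands: the TATA box (TATAAA), the GC box (GGGCGG), the E-box (CACGTG) and the cAMP response element (TGACGTCA), of which the last 2 read the same on both strands. Matches of the GC box can overlap each other.
Kcnj4, chr15:79505242-79505491, minus strand: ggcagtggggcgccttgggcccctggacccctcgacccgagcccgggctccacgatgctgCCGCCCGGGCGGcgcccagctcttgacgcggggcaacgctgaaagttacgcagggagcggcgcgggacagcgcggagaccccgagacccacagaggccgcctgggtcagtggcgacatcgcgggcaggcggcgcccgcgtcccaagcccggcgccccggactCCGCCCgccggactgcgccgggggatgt
Kcnip2, chr19:45816064-45816313, minus strand: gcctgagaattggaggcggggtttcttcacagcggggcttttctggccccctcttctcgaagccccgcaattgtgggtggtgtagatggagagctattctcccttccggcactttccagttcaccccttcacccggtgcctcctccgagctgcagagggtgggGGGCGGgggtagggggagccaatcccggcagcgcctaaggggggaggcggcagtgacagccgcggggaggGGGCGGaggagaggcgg
Kcng4, chr8:119635681-119635930, minus strand: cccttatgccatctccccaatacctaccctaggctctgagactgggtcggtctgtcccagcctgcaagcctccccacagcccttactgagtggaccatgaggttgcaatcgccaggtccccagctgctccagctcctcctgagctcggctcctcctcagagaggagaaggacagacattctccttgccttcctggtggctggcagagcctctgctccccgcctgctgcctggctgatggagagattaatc
Kcna6, chr6:126740675-126740924, minus strand: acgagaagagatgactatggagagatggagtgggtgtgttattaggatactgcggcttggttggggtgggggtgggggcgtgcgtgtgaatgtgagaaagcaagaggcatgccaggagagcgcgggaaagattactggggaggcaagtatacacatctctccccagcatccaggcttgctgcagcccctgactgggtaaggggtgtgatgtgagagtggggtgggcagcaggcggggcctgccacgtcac

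The Kcnj4 window had 35 CpG dinucleotides and that of Kcnip2 15, and those of Kcng4 and Kcna6 had 4 and 8, beside a median of 6 over 32851 promoters. Among the genes not printed the pattern was not the same: Kcnc1, higher in KO, had 30 CpG dinucleotides and 3 GC boxes, and Kcnf1, lower in KO, had 1 and none. Some of the 18 starts belong to the same gene, so the windows are not independent. Of these windows, 8 held a GC box, in 8 of the 11 genes, beside 32.7% of all promoters. A TATA box was held by 1 window, beside 12.4%, and none held an E-box or a cAMP response element, beside 6.02% and 1.55%. These matches describe the letters only.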

How the data were processed

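RNA of 2 arrays (4x44k, 1 slide) was read by the authors with Agilent Feature Extraction 9.5.3.1. The authors deposited mean and median background intensity per spot in each channel, the scanner's log10 ratio, and a set of log2 ratios of KO over control. The normalization behind that set is not given in the sources used here. Here, intensities were corrected with normexp (offset 50) and loess-normalized array by array in limma 3.58.1 (R 4.3.3, data.table version 1.17.8), outlier and control spots were left out, and spots of a probe were averaged. The channels were scaled across arrays (Aquantile) for comparisons within a dye. Counts at 2-fold used probes that the scanner marked as well above background in either channel. Further steps used matplotlib 3.10.9, Python 3.11.15, pandas 2.3.3 and numpy 2.4.6. The code was tested on simulated data.

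Gene names came from the files. A few genes are counted but not reported here by name. All 123 Kcn probes matched a name in GRCm38.p6, 104 by accession and 19 by symbol. Probes were named if they were past 2-fold in the same direction in both comparisons, had discordant partners, belonged to Kcnj6, differed 2-fold between controls or were the brightest of a subfamily. The members, gene lists and tests were chosen with earlier results of these data known. The alternatives were offset 0, median centring, no normalization, the scanner's ratio, the deposited ratio, other filters and 1 probe per gene.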

Additional observations from a re-analysis of the deposited data

How the results depend on the processing

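The 14 probes past 2-fold in both comparisons, and the other named probes past 2-fold in 1 comparison, gave 30 ratios, all of which stayed past 2-fold in the same direction with offset 0, the scanner's ratio and the deposited ratio. With median centring 29 did, the exception being Kcnc1 A_52_P592305 over KO Tg (0.98), and without normalization 25 did, among the exceptions being ratios of Kcnc1 and Kcne2. Without normalization the median of all probes was -0.19 on array 1 and -0.25 on array 2, and the median of Kcn probes was -0.27 over WT and -0.40 over KO Tg, where the settings used here gave -0.09 and -0.14 with each array's own filter; with median centring it was -0.22 over KO Tg.

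Counts of Kcn probes moved by more than 1.5 times in these cases. Higher than WT, 10 probes became 5 without normalization. Lower than WT, 9 became 20 with offset 0, 16 without normalization, 20 with the scanner's ratio and 21 with the deposited ratio. Higher than KO Tg, 7 became 4 with 1 probe per gene. Lower than KO Tg, 11 became 19 without normalization, 19 with the scanner's ratio and 20 with the deposited ratio. Higher than both, 6 became 3 without normalization and 3 with 1 probe per gene. Of all probes, 7.67% were lower than WT with offset 0 and 9.46% with the scanner's ratio, beside 4.42% here. Without normalization this share was 8.26%, and with the deposited ratio 9.71%. Against KO Tg, 3.85% of all probes were lower here. That share was 8.71% without normalization, 8.14% with the scanner's ratio and 8.60% with the deposited ratio. Without normalization 3.35% of all probes were higher than WT, beside 4.9% here. The cause was not tested. The count lower than both, 8, stayed between 6 and 11. Shares of all probes past 2-fold in both comparisons are not given for the alternative settings, nor are shares with 1 probe per gene. The counts at those settings therefore do not show whether Kcn probes still lay above all probes. No paired analysis was possible because each group holds 1 array. Kcnj6 A_51_P142371, Kcnj16 A_51_P357773 and Kcnj4 A_51_P166740 were the named probes past 2-fold whose fold moved by more than 1.5 times under an alternative, from 5.45 to 22.9 for Kcnj6 over WT. Each comparison rests on 1 array.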
